A study of Betula luminifera with 4 samples.

Results

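Galactolipid and sulfolipid synthases of the birch Betula luminifera were read from a table of 76899 assembled contigs, which are gene models built from RNA reads without a genome. Members were all contigs whose Swiss-Prot description, or best protein match where that was missing, named a galactosyldiacylglycerol synthase or contained the stem sulfoquinovos. This found 10 contigs under 6 protein names, and all 10 had a eudicot as their best match. They were the monogalactosyldiacylglycerol synthases MGD and MGD2 (1 contig each), the digalactosyldiacylglycerol synthases DGD1 (4 contigs) and DGD2 (2 contigs), the UDP-sulfoquinovose synthase SQD1 and the sulfoquinovosyltransferase SQD2 (1 contig each).

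All plants were 1 clone, G49#, raised in tissue culture, 2 months old when planted in sand, and given 2 weeks of normal medium and then 2 weeks of deionized water. Control plants (CK) then received mineral medium with 1.25 mM KH2PO4. Phosphate-deficient plants (LP) received medium without KH2PO4 and with K2SO4 to make up the potassium, so that missing phosphate and added sulfate cannot be told apart. Each medium was represented by 1 library of root RNA and 1 of shoot RNA (stem and leaf mixed), and every difference below therefore compares single libraries without a replicate check. The labels name 54 plants in 3 blocks for the whole experiment and 20 mL of medium per day. They do not give the length of the treatment or the number of plants behind a library.

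Plastid membranes are built mainly from galactolipids, which carry sugar in place of phosphate. MGDG synthases add galactose from UDP-galactose to diacylglycerol, and DGDG synthases add a further galactose to the product. SQD1 makes UDP-sulfoquinovose from UDP-glucose and sulfite, and SQD2 moves the sulfoquinovose onto diacylglycerol to give the sulfolipid. In Arabidopsis, plants short of phosphate replace phospholipids with digalactolipid and sulfolipid, and MGD2, MGD3, DGD2, SQD1 and SQD2 take part in that exchange while MGD1 and DGD1 supply most galactolipid of photosynthetic membranes.

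Levels are in TPM, a share of all transcripts corrected for contig length, which sums to between 999275.0 and 999865.0 in each library. Contigs above 0 numbered 26711 under CK and 56647 under LP in roots, and 39046 and 50435 in shoots. Eudicot-matched contigs accounted for 66.0% (CK) and 51.5% (LP) of root TPM and 82.4% and 78.7% of shoot TPM, so the LP root library had the smallest eudicot share of the 4. Over 12949 eudicot-matched contigs of at least 1 TPM in every library, the scaling step gave an LP to CK shift of -0.63 log2 units in roots and 0.11 in shoots, and log2 ratios called scaled are relative to these shifts. The steps between low values gave about 23600000 and 32600000 fragments for the CK and LP roots and 24000000 and 33400000 for the shoots, in contigs of at least 400 bp. Intervals below are 95% intervals from such fragment numbers, cover counting error only and leave out variation between plants. In bulk tissue, fewer cells of a type and less RNA per cell cannot be told apart.

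The tissue labels were checked on nuclear photosynthesis contigs and on root markers. The 53 photosynthesis contigs summed to 742.9 TPM under CK and 4101.4 under LP in roots, and 51201.8 and 32410.4 in shoots. A single chlorophyll a-b binding contig, OsI_012078, gave 3698.42 TPM of the LP root sum, and without it the sums were 555.9, 403.0, 47968.0 and 30798.6. The 5 root marker contigs, of Casparian strip and nitrate transport proteins, summed to 734.7, 151.7, 129.2 and 393.8 TPM. Without the most abundant, the nitrate transport protein NRT3.1, the other 4 summed to 211.9, 67.6, 0.0 and 13.4 TPM and all were at 0 in CK shoots.

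Summed over its contigs, DGD1 was the most abundant synthase in CK roots and in both shoot libraries. The sum was 49.99 TPM under CK and 27.85 under LP in roots, and 128.36 and 300.37 in shoots. In LP roots SQD2 stood first at 29.6 TPM, but its gap to the DGD1 sum was within the 95% counting interval of the difference (counting errors of 0.543 and 0.993 TPM). The order in roots depends on the summing. The longest DGD1 contig alone had 18.01 TPM in CK roots, beside 17.36 for SQD1. In LP roots it had 14.75 TPM, below SQD2 and the 17.83 TPM of the longest DGD2 contig. In both shoot libraries it still stood first. MGD2 was the least abundant in CK roots and CK shoots, and in LP shoots its 15.62 TPM was by the same measure not separated from the 15.73 TPM of DGD2. DGD2 and SQD2 were likewise not separated in CK roots (13.32 and 12.93 TPM) or CK shoots (15.37 and 16.28 TPM). The 6 names together summed to 97.6, 107.9, 227.2 and 464.6 TPM.

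**Figure D1:**
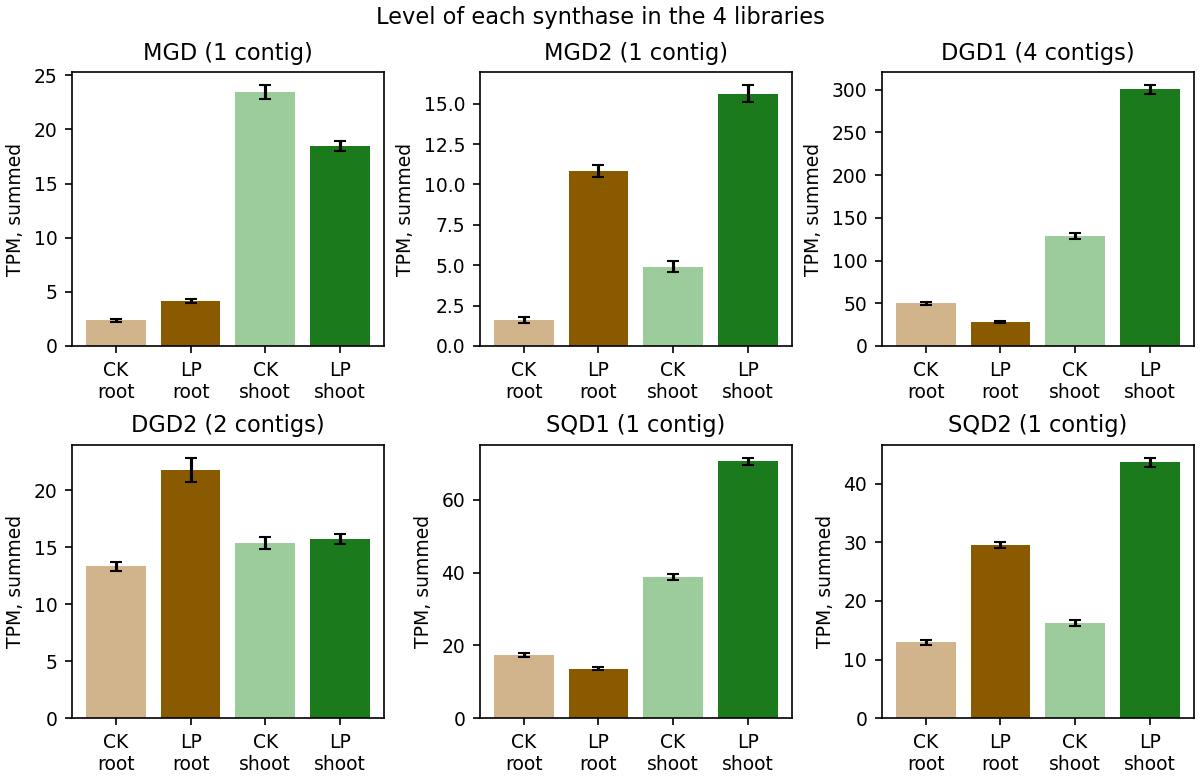
Level of each synthase, as the sum of TPM over its contigs, in the 4 libraries. Error bars are 1 counting error and no replicate spread; axes differ between panels. MGD2 and SQD2 were higher in LP than in CK in both tissues, and DGD1 and SQD1 stood higher under LP in shoots and lower in roots. On scaling, the root log2 ratio went from -0.33 to 0.26 for SQD1 and from -0.82 to -0.21 for the DGD1 sum. That of the longest DGD1 contig turned from -0.27 to 0.32.

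The MGDG synthases split by tissue and medium. The MGD contig (2175 bp), whose Swiss-Prot match was the cucumber enzyme, stood at 2.35 TPM under CK and 4.13 under LP in roots, and 23.45 and 18.5 in shoots. It was lower in roots than shoots in both media, 9.98-fold higher in shoots than roots under CK (8.56 to 11.7) and 4.48-fold under LP (4.04 to 4.97). Under LP the log2 ratio of roots to shoots was -1.93 as deposited and -1.19 after scaling. Between media its log2 ratio was 0.61 in roots and -0.33 in shoots, which did not reach the size called a change here, a log2((LP + 1)/(CK + 1)) of at least 1 with a larger value of at least 1 TPM. After scaling the root ratio was 1.12, which passes that size.

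The MGD2 contig (1559 bp), matched to the Arabidopsis enzyme of that name, had 1.6 TPM under CK and 10.86 under LP in roots, and 4.9 and 15.62 in shoots. It was the only MGDG synthase contig called higher as deposited, and it was so in both tissues. The fold was 6.79 in roots (5.43 to 8.64, log2 ratio 2.19) and 3.19 in shoots (2.73 to 3.72, log2 ratio 1.49). In LP roots it rested on about 854 fragments, and the longer MGD contig on 473. Of the MGD and MGD2 TPM together, MGD2 made up 40.5% under CK (34.1 to 47.0) and 72.4% under LP (70.1 to 74.7) in roots, and 17.3% (15.2 to 19.5) and 45.8% (43.7 to 47.8) respectively in shoots. Such shares compare transcripts of 1 library and do not move with the shift between libraries.

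The DGD1 contigs gave different pictures in roots. The longest (2450 bp, 14 assembled transcripts) stood at 18.01 TPM under CK and 14.75 under LP in roots, and 61.35 and 112.88 in shoots. Its root ratio was small and turned sign on scaling (log2 -0.27 as deposited, 0.32 scaled), and in shoots it was 1.84-fold higher under LP (1.78 to 1.91, log2 ratio 0.87), short of the called size. A contig of 574 bp had 30.9, 3.68, 55.97 and 158.6 TPM in the same order. It was called lower in LP roots, by 8.4-fold (6.56 to 10.8, log2 ratio -2.77), and higher in LP shoots, by 2.83-fold (2.58 to 3.12, log2 ratio 1.49).

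The other 2 DGD1 contigs were short. A contig of 300 bp had 1.08 TPM under CK, from about 3 fragments, and 0 under LP in roots, and 11.04 and 28.89 in shoots, a shoot fold of 2.62 (1.63 to 4.23). A contig of 436 bp was above 0 only in LP roots, at 9.42 TPM, and carries the same assembly cluster number as the longest. The reads of 1 gene can be split over such contigs, and where contigs are parts of 1 transcript their summed TPM counts it more than once. The DGD1 sum had a log2 ratio of -0.82 in roots and 1.22 in shoots (2.34-fold), and only the sum, not the longest contig, passed the called size in shoots.

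**Figure D2:**
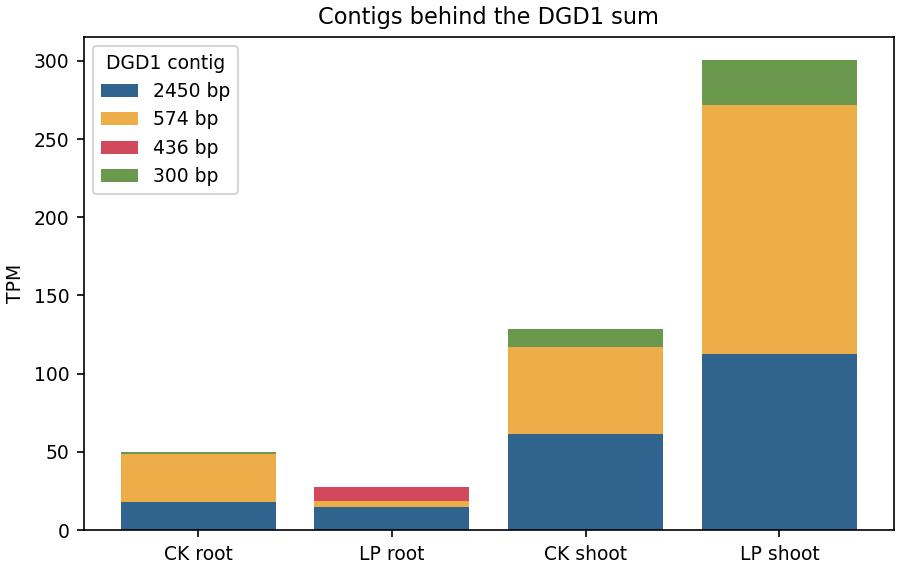
TPM of the 4 DGD1 contigs, stacked, in each library. The 574 bp contig gave 61.8% of the sum under CK and 13.2% under LP in roots, and 43.6% and 52.8% in shoots.

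DGD2, one of the enzymes named above for the lipid exchange of Arabidopsis, was level between shoot libraries. Its 2174 bp contig stood at 13.32 TPM under CK and 17.83 under LP in roots, and 15.37 and 15.73 in shoots. The LP to CK fold was 1.34 in roots (1.24 to 1.44) and 1.02 in shoots (0.941 to 1.11), and neither was called. A DGD2 contig of 267 bp was above 0 only in LP roots, at 3.98 TPM from about 16 fragments. With it the DGD2 sum had a root log2 ratio of 0.67, or 1.27 after scaling, and without it 0.40, or 0.99 after scaling, which is short of the called size. Of the 2 longest DGD contigs, DGD2 held 42.5% under CK (40.6 to 44.5) and 54.7% under LP (53.2 to 56.3) in roots, and 20.0% (18.9 to 21.2) and 12.2% (11.6 to 12.9) respectively in shoots.

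The 2 sulfolipid enzymes differed from each other. SQD1 (1883 bp) stood at 17.36 TPM under CK and 13.65 under LP in roots, and 38.88 and 70.66 in shoots. It was not called in either tissue: the root log2 ratio was -0.33, or 0.26 scaled, and the shoot fold was 1.82 (1.73 to 1.91, log2 ratio 0.85). SQD2 (1935 bp) stood at 12.93, 29.6, 16.28 and 43.71 TPM in the same order. It was called higher under LP in both tissues, by 2.29-fold in roots (2.12 to 2.47, log2 ratio 1.14) and 2.68-fold in shoots (2.49 to 2.9, log2 ratio 1.37). SQD2 per SQD1, as a ratio of TPM, was 0.745 under CK (0.681 to 0.814) and 2.17 under LP (2.03 to 2.32) in roots, and 0.419 (0.386 to 0.454) and 0.619 (0.592 to 0.647) respectively in shoots. SQD2 was thus the larger of the pair in LP roots and the smaller in the other 3 libraries. A contig named sulfoquinovosyltransferase by its KEGG orthology alone is left out here. It had 27.02 TPM under CK and 1.01 under LP in roots, and 20.67 and 11.99 in shoots. In CK roots it exceeded both SQD2 and SQD1, and in CK shoots it exceeded SQD2. Its LP to CK log2 ratios, -3.8 in roots and -0.74 in shoots, were opposite in sign to those of SQD2. The order, the ratios and the higher SQD2 level under LP thus hold for the named contigs only.

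**Figure D3:**
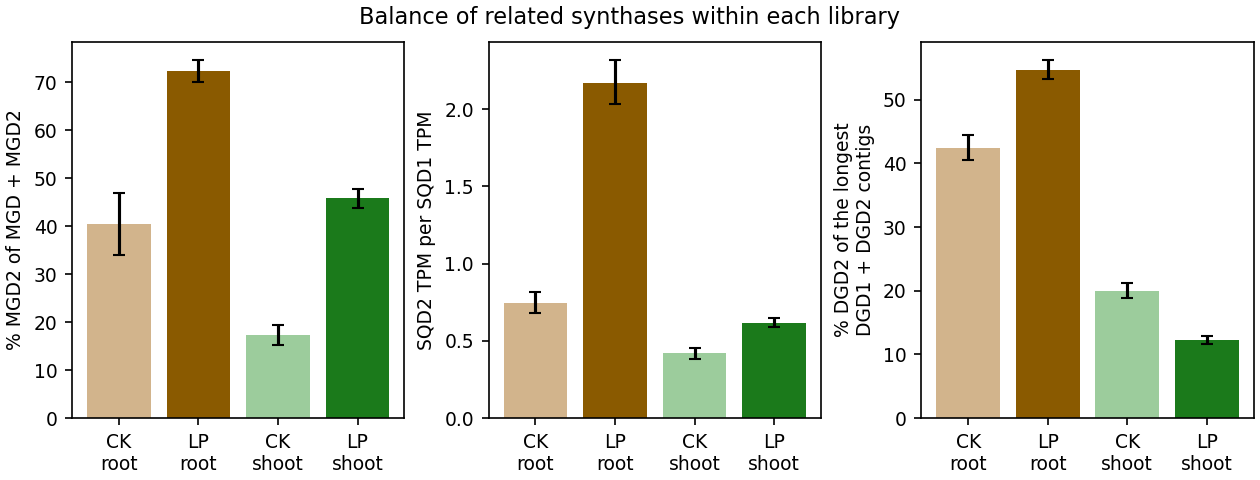
Balance of related synthases within each library: the percent of MGD plus MGD2 TPM that is MGD2, SQD2 TPM per SQD1 TPM, and the percent of the longest DGD1 and DGD2 contigs that is DGD2. Error bars are 95% counting intervals. The MGD2 and SQD2 contigs gained on their partners under LP in both tissues, and DGD2 gained in roots and lost in shoots.

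By the called size, 4 of 10 member contigs were higher and 2 lower in LP roots. The higher were MGD2, SQD2 and the 436 bp and 267 bp contigs, which were at 0 in CK roots, and the lower were the 574 bp DGD1 contig and the 300 bp one, with about 3 fragments under CK and 0 under LP. Over all contigs tested 64.2% were higher and 22.4% lower, over eudicot-matched contigs of any length 40% and 33.8%, and over those of at least 1000 bp 21.7% and 34.2%. The share of members called higher in roots thus equalled that of eudicot-matched contigs of any length. Of the 6 members of at least 1000 bp, 2 were higher (MGD2 and SQD2) and 0 lower. In shoots 4 of the 8 members tested were higher and 0 lower, against 40.1% and 23% of all contigs, 26.4% and 21.1% of eudicot-matched ones and 11.4% and 10.6% of the long eudicot-matched ones, and the higher were MGD2, SQD2 and the 574 bp and 300 bp DGD1 contigs. The other 2 members, the 436 bp and 267 bp contigs, were at 0 in both shoot libraries. The median log2 ratio of the members tested was 0.50 in roots and 1.09 in shoots, beside 2.31 and 0.39 over all contigs and -0.37 and 0.07 over the long eudicot-matched ones.

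MGD2 and SQD2 were the members called higher in both tissues. Among all contigs tested in both comparisons 27.4% were, and among long eudicot-matched ones 3.86%, or 375 of 9704. As deposited values side by side, the shoot log2 ratio minus the root one was 2.04 for the DGD1 sum, 1.17 for SQD1 and 0.24 for SQD2. It was -0.64 for DGD2, -0.70 for MGD2 and -0.94 for MGD. Scaling moved these differences: SQD2 then had 1.74 in roots and 1.26 in shoots, so its difference turned sign. The DGD1 sum had -0.21 in roots and 1.11 in shoots after scaling. Its longest contig alone had -0.27 and 0.87 as deposited, and 0.32 and 0.76 scaled. Several other values moved with medium in roots. The eudicot share of TPM was 66.0% under CK and 51.5% under LP, 4 of 5 root markers were lower and 1 higher, and 20 of 39 photosynthesis contigs tested were higher and 11 lower. Contigs of at least 1 TPM matched to yeast genera numbered 38 and 578, and those matched to listed animal genera 31 and 753. In shoots 7 of 53 photosynthesis contigs were higher and 14 lower, both root markers tested were higher, and yeast and animal matches went from 11 to 50 and from 32 to 820. The part of any of these in the synthase ratios was not tested.

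**Figure D4:**
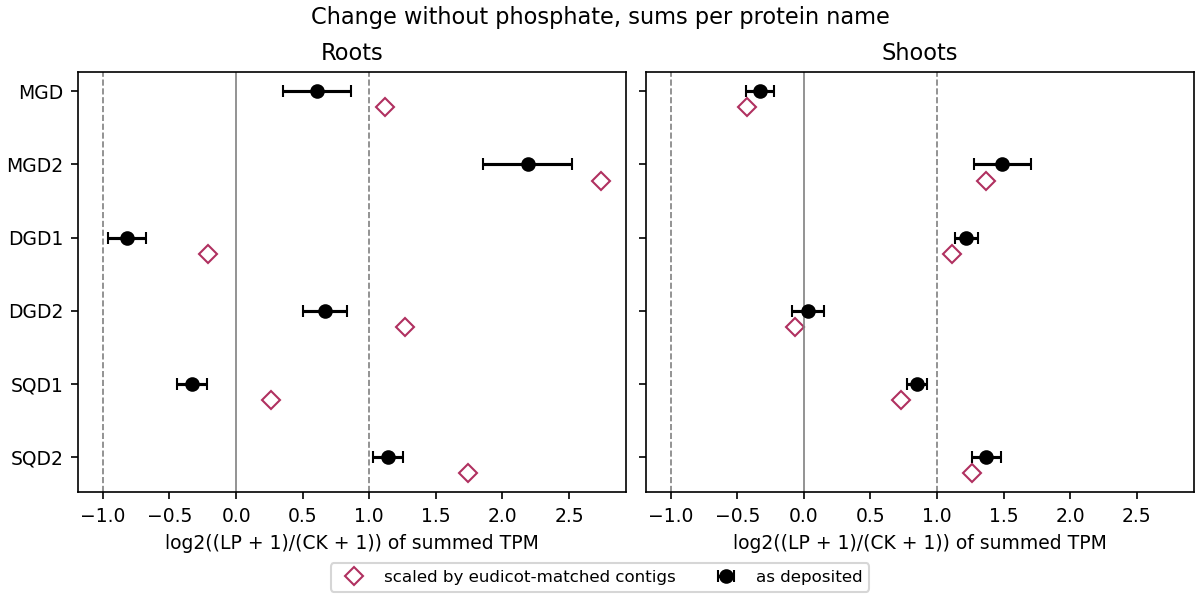
Log2 ratio of summed TPM, LP to CK, for each synthase in roots and in shoots. Filled points are values as deposited with 95% counting intervals, open diamonds are scaled by the median ratio of eudicot-matched contigs, and dashed lines mark the called size of 1. In roots MGD and the DGD2 sum pass the line only after scaling, and DGD2 only with its 267 bp contig.

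**Figure D5:**
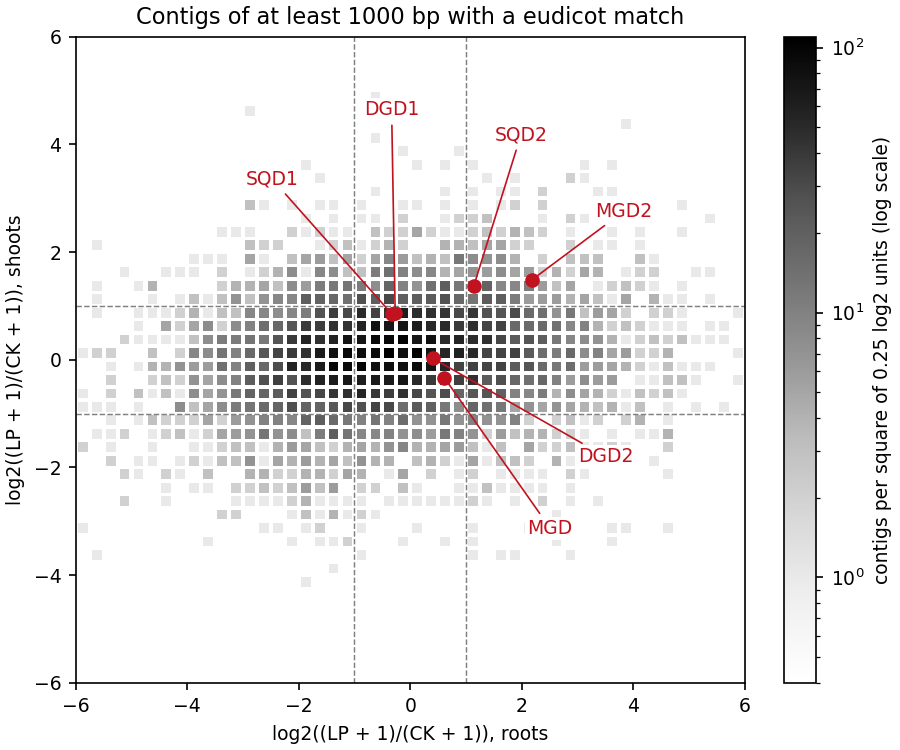
Log2 ratio in roots against that in shoots for 9704 eudicot-matched contigs of at least 1000 bp, of which 9683 lie within the axes, with grey squares shaded by the number of contigs (log scale). Red points are the 6 member contigs of that length: MGD2 and SQD2 lie past 1 on both axes, and SQD1 and the long DGD1 contig lie next to each other.

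Between tissues, the sums of MGD, DGD1 and SQD1 were called lower in roots than shoots in both media, and that of MGD2 under CK. The scaling shift of roots against shoots was -0.11 log2 units under CK and -0.85 under LP. Under CK 5 of the 8 members tested were lower in roots and 0 higher, against 54.2% lower and 26.5% higher over all contigs, 53.1% and 20.7% over eudicot-matched ones, and 41% and 15.5% over long eudicot-matched ones. Under LP 5 of 10 were lower and 2 higher, against 37.5% and 41.7% over all contigs, 53.5% and 20.3% over eudicot-matched ones, and 52.6% and 9.7% over long eudicot-matched ones. The share of members lower in roots was thus near the background, and is not a result about the synthases. The 2 higher were the 436 bp DGD1 and 267 bp DGD2 contigs. The long members gave 4 lower under CK and 3 under LP. The DGD1 sum was 10.8-fold lower in roots than shoots under LP (log2 ratio -3.38, or -2.55 scaled), and its longest contig 7.65-fold lower (7.29 to 8.04). MGD2 was 3.06-fold lower in roots under CK (2.38 to 4.03), and under LP its log2 ratio of -0.49 turned to 0.30 on scaling. The same held for SQD2 under LP, at -0.55 as deposited and 0.28 scaled. The DGD2 sum under LP was not called as deposited (0.45) and was called higher in roots after scaling (1.26), while its 2174 bp contig alone reached 0.98 scaled.

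Other annotation followed the enzyme classes. The Pfam domain MGDG_synth was listed for both MGDG contigs, Glycos_transf_1 for the longest DGD1 and DGD2 contigs and the 300 bp DGD1 contig, GDP_Man_Dehyd for SQD1 and Glyco_transf_4 for SQD2. The GO term for the cellular response to phosphate starvation was listed for MGD2, both DGD2 contigs, SQD1 and SQD2, and for neither MGD nor any DGD1 contig. Of the long contigs with that term, MGD2 and SQD2 were called higher in both tissues and DGD2 and SQD1 in neither.

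Steps that feed the synthases or act beside them were listed by protein name. Their counts are to be read against the shares of eudicot-matched contigs called higher and lower, 40% and 33.8% in roots and 26.4% and 21.1% in shoots, and against those of all contigs, 64.2% and 22.4% in roots and 40.1% and 23% in shoots. UDP-glucose and UDP-galactose supply had 14 contigs. In roots 4 were higher and 5 lower of 14 tested (median log2 ratio -0.32), and in shoots 2 and 1 of 9 (0.31). Over its 9 eudicot-matched contigs 2 were higher and 2 lower in roots, and the median turned to 0.16. The UDP-glucose 4-epimerase UGE-1, which makes UDP-galactose, stood at 6.73 TPM in CK roots and 65.65 in LP roots but 4.7 and 4.76 in the shoots. Another epimerase, UGE5, was called higher in shoots, with 11.46 and 26.15 TPM, and was 39.12 and 43.81 in roots. UGP2, which makes UDP-glucose, was lower under LP in both tissues, from 29.2 to 9.84 and from 53.62 to 12.98 TPM, although its scaled root log2 ratio of -0.90 is short of the called size. The most abundant contig of the list, a UDP-glucose pyrophosphorylase named UGP1 (707 bp), was not called as deposited, at 142.38, 252.33, 61.61 and 94.59 TPM. Its root log2 ratio went from 0.82 to 1.44 on scaling, which passes the called size.

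Diacylglycerol, the acceptor of both sugar head groups, is released by phosphatidate phosphatases and non-specific phospholipases C. Of 24 such contigs, 11 were higher and 4 lower of 23 tested in roots (median 0.78), and 8 and 3 of 22 in shoots (0.54). A contig of the phospholipase NPC1 had 117.27 TPM in CK roots and 246.88 in LP roots, and one of NPC2 had 93.53 and 2.88. In shoots a contig of the lipid phosphate phosphatase LPP2 (545 bp) had 6.05 TPM under CK and 43.54 under LP, and it was also higher in roots. A longer contig (1349 bp), matched to a lipid phosphate phosphatase 2-like protein, was called lower in shoots, from 23.3 to 5.51 TPM. In roots that contig was not called, at 21.86 and 15.88 TPM. All 3 contigs of the plastid acyltransferase list were higher in LP roots (median 2.72), with LPAT1 of 2024 bp at 11.85 and 58.11 TPM. In shoots 1 of the 3 was higher and 0 lower (0.92). It was a 225 bp contig of the same name, at 0 TPM under CK and 1.99 under LP, not far above the filter of 1 TPM.

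Of 9 contigs of the TGD complex, which brings lipid into the plastid, 0 were higher and 1 lower of 5 tested in roots (median 0.16), and 2 higher and 1 lower of 9 in shoots (0.07). The root contig was TGD2 of 1867 bp, at 116.46 TPM under CK and 13.81 under LP. Plastid fatty acid desaturases, which act on galactolipid acyl chains, gave 1 higher and 2 lower of 5 in roots (-0.54), and 0 higher and 3 lower of 9 in shoots (-0.21). An omega-3 desaturase contig, FAD7A-1 of 1307 bp, stood at 200.3 TPM in CK shoots and 66.11 in LP shoots.

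Sulfate assimilation, the source of the sulfite that SQD1 uses, gave 1 higher and 3 lower of 6 in roots (-1.73), and 1 and 3 of 7 in shoots (-0.65). In both tissues the most abundant contigs called in each direction were sulfite reductases without a eudicot match. The list thus also held enzymes that consume sulfite, and its counts do not describe sulfite supply alone. Only 3 of its 9 contigs had a eudicot match, and 0 of these 3 was called in either tissue. The most abundant, the ATP sulfurylase APS1, had 170.09 TPM under CK and 94.11 under LP in roots, and 198.01 and 233.6 in shoots. Synthesis of phosphatidylglycerol, the phospholipid of plastid membranes, gave 3 higher and 1 lower of 6 in roots (2.32), and 0 and 1 of 5 in shoots (-0.56). This list was not limited to plastid enzymes. The contig called lower in shoots was the mitochondrial TAM41 (466 bp), at 3.39 TPM under CK and 0.12 under LP. Of the 4 eudicot-matched contigs of the list tested in roots 1 was higher and 1 lower, with a median of 0.58. PGPS1 of that list had 1.17 TPM in CK roots and 56.74 in LP roots, and CDS4, which makes CDP-diacylglycerol, had 23.61 and 5.67. Galactolipid turnover gave 4 higher and 3 lower of 8 in roots (0.63), and 1 and 1 of 9 in shoots (-0.01). Its most abundant contig, SFR2, which in Arabidopsis moves galactose between galactolipids, was level between media. SFR2 had 12.77 TPM under CK and 10.38 under LP in roots, and 40.07 and 42.01 in shoots. The most abundant contigs called in each direction were plastid phospholipases A1. In roots one of 430 bp went from 53.48 to 1.0 TPM and one of 256 bp from 0 to 35.54. In shoots one of 692 bp went from 19.08 to 8.83 TPM and one of 855 bp from 1.05 to 3.98.

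The patterns most like those of the DGD1 sum, SQD1 and SQD2 were sought among 21085 named eudicot-matched contigs of at least 5 TPM in some library, by the Euclidean distance of log2 values centred over the 4 libraries. Nearest to SQD2 was the diacylglycerol kinase DGK1, which turns diacylglycerol into phosphatidate, at a distance of 0.06 with 8.79, 19.52, 10.5 and 29.0 TPM. The transcription factor MYB44 (0.11) and the protein CBSDUF7 (0.13) followed. Nearest to DGD1 were the plastid heat shock protein HSP25.3 (0.09), SMXL6 (0.17) and a pentatricopeptide repeat protein (0.19). Nearest to SQD1 were the chaperone CLPB4 (0.10), FRS5 (0.13) and PANC, a pantothenate synthesis enzyme (0.13). Within a distance of 0.5 lay 56 contigs for SQD2, 47 for DGD1 and 143 for SQD1.

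A further 2 contigs carried a sulfolipid enzyme name in their KEGG orthology alone and were not members. A 1631 bp contig with the orthology name sulfoquinovosyltransferase but the bacterial protein name bshA had 27.02 TPM under CK and 1.01 under LP in roots, and 20.67 and 11.99 in shoots. A 266 bp contig with the orthology name UDP-sulfoquinovose synthase had 0, 0.25, 0 and 14.04 TPM.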

How the data were processed

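Poly(A) RNA of 4 libraries (root and shoot, CK and LP) was read as paired ends, per the labels' protocols. Trimming and read checks were by cutadapt 1.9 and by FastQC, which the submitters' processing notes name; which assembler and quantifier were used is not given in the sources used here. The authors deposited a value per assembled contig, read here as TPM because the columns sum to between 999275.0 and 999865.0. Identifiers have the form given by Trinity. Per the file headers, the other column used is contig length.

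Groups came from the labels. Log2 ratios used a pseudocount of 1 TPM, which understates changes of low contigs; contigs reaching 1 TPM in either library were tested, and those with a log2 ratio of at least 1 in size were called. With 1 library per group no p-value or replicate error was computed. Fragment numbers were read from steps of single-transcript contigs of 450 to 700 bp. Within 0.0065 TPM, 98.0% (CK) and 99.7% (LP) of their low root values and 97.6% and 97.0% of their low shoot values were whole. If evenly spread, 15.4%, 26.4%, 11.8% and 14.6% would be. For members shorter than 450 bp the step came from single-transcript contigs of nearly the same length, which these percentages do not cover. Fragment numbers are approximate for genes with several transcripts. TPM is not a count, and no count test was run. The calling and fragment steps were checked for errors on simulated data, which says nothing of variation between plants. For pathway lists, the most abundant contig and the most abundant called in each direction could be named, and those without a eudicot match were left out; for likeness, the 3 nearest. Members and lists were chosen with earlier results of these data known; the backgrounds of eudicot-matched contigs, the sums without 1 marker and the counting intervals were chosen after seeing the data. Alternatives were the pseudocount, filter, threshold, scaling, contig length and sums. Python 3.11.15, pandas 2.3.3, numpy 2.4.6 and scipy 1.17.1 were used.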

Additional observations from a re-analysis of the deposited data

Results flagged for a closer look

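For 2 DGD1 contigs the LP to CK change had opposite directions in the tissues. The 574 bp contig had a log2 ratio of -2.77 in roots and 1.49 in shoots. The 300 bp contig had -1.06 in roots, where it rested on about 3 fragments, and 1.31 in shoots. Each tissue has 1 library per medium, so the difference between tissues was not tested.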

How the results depend on the processing

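No paired analysis was possible because each group is 1 library, and for the same reason no replicate could be left out. A fit of medium with tissue as a block, which has 1 residual degree of freedom and takes the tissues as repeats of each other, was not run. Counting sums per protein name in place of contigs took the called members from 6 to 2 for LP against CK in roots and from 7 to 3 for roots against shoots in LP. A log2 threshold of 2 took them from 4 to 0 for LP against CK in shoots and from 5 to 2 for roots against shoots in CK. These follow from the construction of the alternatives. Of 24 log2 ratios of sums per protein name, all 24 kept their side of the called size with a pseudocount of 0.1 TPM or with contigs of at least 400 bp only. Under either scaling 21 of 24 did and 4 changed sign, the latter being SQD1 in roots, DGD2 in shoots, and MGD2 and SQD2 between tissues under LP. The 3 that passed the called size after scaling were MGD in roots (0.61 to 1.12), DGD2 in roots (0.67 to 1.27) and DGD2 in roots against shoots under LP (0.45 to 1.26). The longest contig alone took the DGD1 shoot ratio from 1.22 to 0.87. Depth limits the short contigs, of which the 300 bp DGD1 contig had about 3 fragments in CK roots and the 267 bp DGD2 contig 16 in LP roots.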
